A study of Mus musculus with 32 samples.

Results

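The genes described here were 9 transcription regulators that pattern the cerebral cortex: Pax6, Emx1, Emx2, Lhx2, Nr2f1, Nr2f2, Sp8, Lmo3 and Lmo4. They were taken by symbol from the 32285 genes in the count tables, and each symbol matched 1 row. Their RNA was measured by droplet single-cell RNA sequencing (10x Genomics 3′ kit, v2 chemistry) of dorsal telencephalon, the part of the embryonic forebrain that becomes the cortex. Tissue came from C57BL/6J mouse embryos that were wild type (WT) or heterozygous for Chd8 (Chd8+/-, here het), a chromatin remodeller gene, with no treatment. The stages were embryonic day (E) 12.5 and then E14.5, followed by E16.0 and last E17.5, each with 4 litter- and sex-matched WT and het pairs, 2 male (M1, M2) and 2 female (F1, F2), which makes 8 groups of 4 libraries and 32 libraries in all. The medial wall was cut away at dissection, embryos were processed singly, and the labels do not name the mutant allele. Position along the cortex was not recorded, so levels are averages over whatever areas the dissection held.

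Cells of the ventricular zone, the radial glia and other progenitors, carry Sox2, and newborn and maturing excitatory neurons carry Neurod6. In progenitors, graded transcription factors give the cortical sheet its map of areas: Pax6 and Sp8 are strongest rostrally, Emx2 caudally and medially, and Nr2f1 and Nr2f2 caudally and ventrolaterally, while FGF8 from the rostral patterning centre raises Sp8 and represses Emx2 and Nr2f1. Lhx2 selects cortical identity over that of the neighbouring hem, Emx1 marks the dorsal lineage in progenitors and neurons, and Lmo3 and Lmo4 are LIM-only cofactors with regional patterns in neurons.

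For each library the unique molecule counts (UMIs) of all cells with at least 1 Sox2 UMI were summed, and likewise those of all cells with at least 1 Neurod6 UMI, and a gene's level was its share of that sum, in CPM (the usual scaling of counts to a common total). After filtering, 143697 of 145082 barcodes were kept, 2447 to 7388 per library. A library held 448 to 4386 Sox2-detected and 1016 to 5844 Neurod6-detected cells, with 3603134 to 54017112 and 4756479 to 37406183 UMIs. The classes overlap: 11.7% to 21.6% of WT Sox2-detected cells had a Neurod6 UMI at E12.5 and 38.6% to 53.0% at E17.5. Of WT Neurod6-detected cells, 40.6% to 50.2% had a Sox2 UMI at E12.5, 19.5% to 24.2% at E14.5 and 8.97% to 13.4% at E17.5. A Neurod6 UMI was also found in 10.0% to 19.5% of cells with microglial markers, by stage, and in 16.2% to 34.4% of those with endothelial markers, and a Sox2 UMI in 4.07% to 18.9% and 4.35% to 28.7% of them. Their median depths were 5371.5 to 10915 and 7707 to 18772 UMIs, against 6377 (SD 416.1) at E17.5 and 10715.6 (SD 794.2) at E12.5 over the WT medians of Sox2-detected cells. All 7 radial glial and all 7 excitatory neuron markers checked were present in every library of either class, and their summed levels at E12.5 in WT were 2825 to 3372 CPM for radial glia and 608.6 to 743.3 CPM for neurons in Sox2-detected cells, and 1556 to 1863 and 3737 to 4676 CPM in Neurod6-detected cells. Chd8 was lower in the het library of 15 of 16 pairs in each class, with a log2 fold change averaged over stages of -0.27 in Sox2-detected cells (edgeR's quasi-likelihood test, Benjamini-Hochberg adjusted p = 0.097, and 0.0071 with the pair as a block).

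Lhx2, Emx2, Emx1 and Sp8 fell with stage in Sox2-detected cells of WT embryos, Lmo4 was higher at E17.5, and the test passed no change between E12.5 and E17.5 for Pax6, Lmo3, Nr2f1 and Nr2f2. Thus 5 of 9 genes passed (adjusted p under 0.05), against 59.9% of the 14021 genes tested between these stages, 1 of them higher (32.2% of all genes) and 4 lower (27.7%). By step, 3 of 9 passed from E12.5 to E14.5 (39.3% of all genes), 3 of 9 from E14.5 to E16.0 (9.46%) and 4 of 9 from E16.0 to E17.5 (20.9%). All step changes below are log2 fold changes of edgeR's quasi-likelihood test on the UMI sums, with standard error (SE) and Benjamini-Hochberg adjusted p, and 4 libraries in each group. Library values are in the order M1, M2, F1, F2.

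The 250 bases before the RefSeq transcription start (GRCm38.p6) are shown for Lhx2, Sp8 and Pax6, which with all Sox2-detected cells counted passed at every step, at the first and at none. Capitals mark GGGCGG or its reverse complement CCGCCC, the core of GC boxes.
Lhx2 (chr2:38339031-38339280, plus strand): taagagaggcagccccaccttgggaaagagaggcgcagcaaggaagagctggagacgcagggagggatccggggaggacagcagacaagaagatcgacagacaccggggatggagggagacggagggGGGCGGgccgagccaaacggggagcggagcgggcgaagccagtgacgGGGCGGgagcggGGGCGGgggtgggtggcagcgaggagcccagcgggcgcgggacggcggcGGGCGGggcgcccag
Sp8 (chr12:118846079-118846328, plus strand): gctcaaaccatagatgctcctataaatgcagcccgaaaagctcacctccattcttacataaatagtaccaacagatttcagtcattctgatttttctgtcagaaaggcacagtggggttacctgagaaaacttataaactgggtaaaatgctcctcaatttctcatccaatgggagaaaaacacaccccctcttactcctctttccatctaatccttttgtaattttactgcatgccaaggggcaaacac
Pax6 (chr2:105668646-105668895, plus strand): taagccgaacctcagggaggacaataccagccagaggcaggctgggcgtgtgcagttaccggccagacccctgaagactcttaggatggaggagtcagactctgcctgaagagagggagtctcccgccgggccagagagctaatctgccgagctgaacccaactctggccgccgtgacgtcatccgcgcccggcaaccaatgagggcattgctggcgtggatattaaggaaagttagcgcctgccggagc
The Lhx2 window held the GC-box core 4 times and was 72.8% G and C, that of Sp8 held none and was 40.8% G and C, and that of Pax6 held none and was 60.8% G and C. Of 32851 mouse promoter windows of the same length, 32.7% held this core, with matches counted on both strands. The other 2 windows of Sp8 differed from the printed one: the next held the GC-box core 1 time and AGGTCA 1 time and was 67.2% G and C, and the last held TAATTA 1 time. The other windows of Lhx2 and Pax6 held none of the 3 motifs. Neither TAATTA, the core of homeodomain sites (1590 of the windows), nor AGGTCA, the hexamer bound by nuclear receptors (4607 windows), occurred on either strand of the 3 printed windows. Lhx2 and Pax6 have 2 RefSeq windows each and Sp8 has 3 (the 9 genes have 16), and 3′ counts do not say which start was used. The printed windows are the ones just outside the gene's annotated span. For Emx1 and Emx2 the windows lie inside the annotated gene and are not printed.

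**Figure D1:**
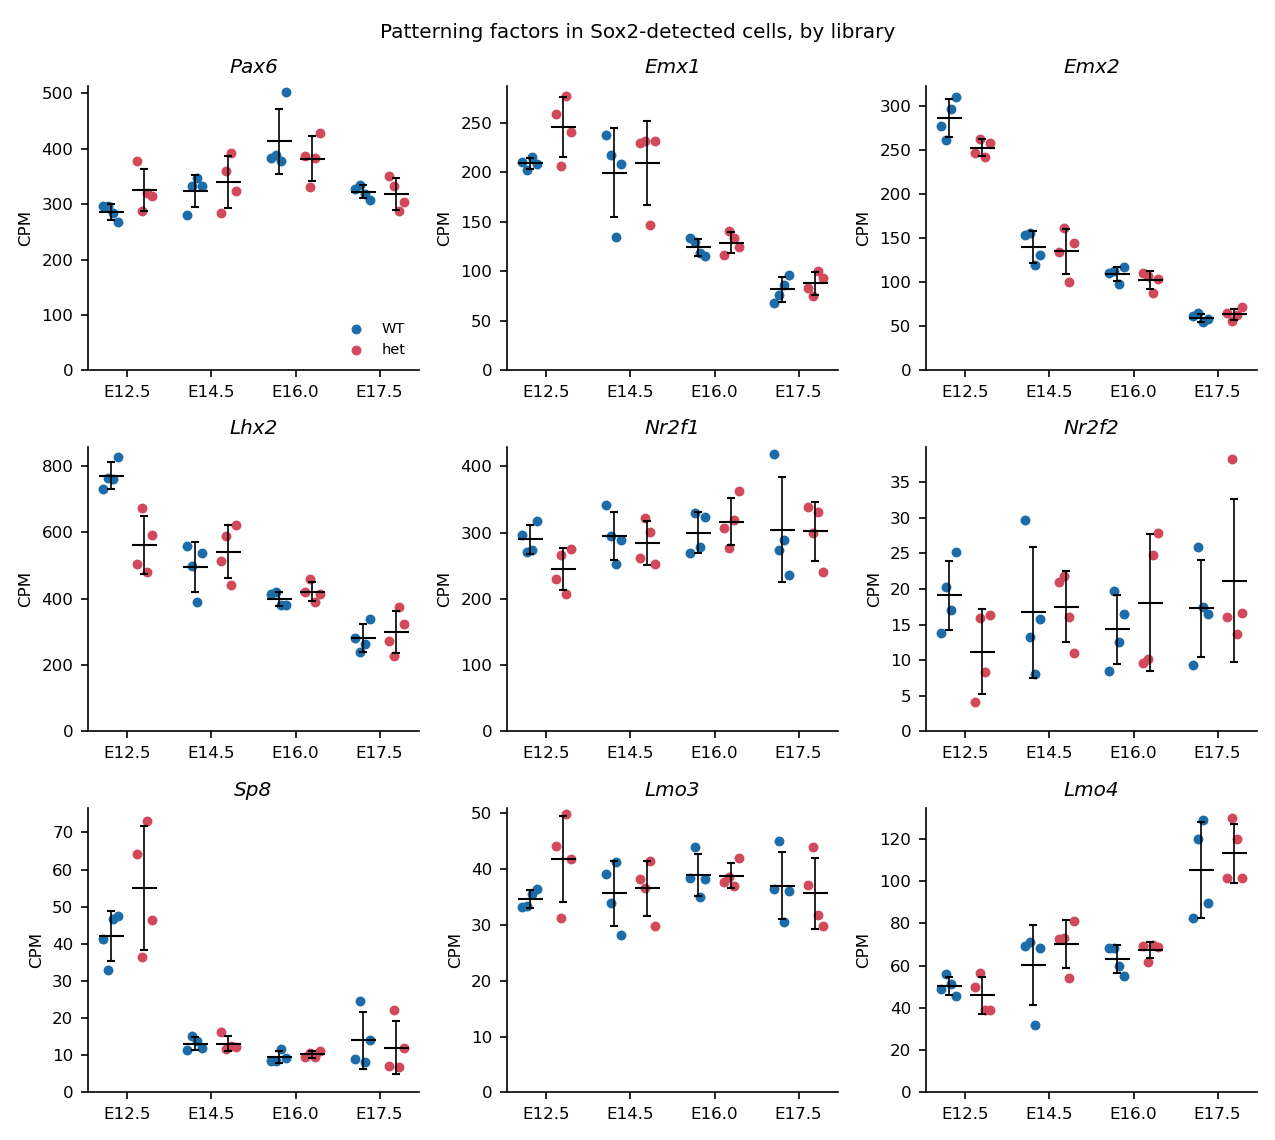
Levels of the 9 genes in Sox2-detected cells. The vertical axis is CPM on a linear scale from 0, the horizontal axis is embryonic day, each point is a library (WT and het in separate colours, 4 per group) and black marks give the group mean with its SD. Emx2 falls from 261 to 310 CPM in WT at E12.5 to 54.5 to 65.0 at E17.5, and Lmo4 is higher at E17.5 than before.

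Lhx2, the LIM-homeodomain selector of cortical fate (ENSMUSG00000000247, chr2:38339281-38369733, plus strand in mm10), stood at 729, 763, 761 and 826 CPM in Sox2-detected WT cells at E12.5. The values were 557, 499, 388 and 536 CPM at E14.5, then 415, 419, 382 and 381 at E16.0, and last 282, 239, 262 and 338 at E17.5. Every E12.5 library lay above every later one and every E17.5 library below every earlier one, while E14.5 and E16.0 overlapped through F1. The steps were -0.77 (SE 0.13, adjusted p = 2.5e-05), -0.44 (SE 0.13, adjusted p = 0.032) and -0.43 (SE 0.13, adjusted p = 0.020), and E17.5 was 3.10-fold below E12.5. Without any 1 of 7 of the 8 WT libraries at E14.5 and E16.0 the middle step kept a similar size, -0.36 to -0.45, but did not pass (adjusted p between 0.057 and 0.12). With interneuron-marker cells left out the last step was -0.31 and did not pass (adjusted p = 0.085).

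Emx2, a homeobox gene of the medial and caudal cortex (ENSMUSG00000043969, chr19:59458372-59465357, plus strand), fell at every step. Its levels were 278, 261, 297 and 310 CPM at E12.5, then 154, 156, 120 and 131 at E14.5, next 111, 113, 98.2 and 117 at E16.0, and last 61.5, 65.0, 54.5 and 58.9 at E17.5. No 2 neighbouring stages overlapped, and the steps were -1.17 (SE 0.10, adjusted p = 3.6e-10), -0.47 (SE 0.10, adjusted p = 0.0030) and -0.79 (SE 0.11, adjusted p = 7.5e-06). E17.5 was 5.38-fold below E12.5, the largest fall of the 9 in this class with all cells counted. Without interneuron-marker cells that of Sp8 was larger, with mean levels going from 41.5 to 3.50 CPM, against 288 to 68.2 CPM for Emx2. The antisense gene Emx2os overlaps Emx2 on the other strand and had 22.7 ± 2.20 CPM at E12.5 and 4.50 ± 0.874 at E17.5 (SD, n = 4). Whether the authors' counting used strand is not given in the sources used here, so whether reads of Emx2os were counted for Emx2 is not known. The same holds for the antisense neighbours of Pax6, Lhx2, Nr2f1, Nr2f2 and Lmo3 and for the same-strand Gm43445 over Lmo4.

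Emx1, the other Emx homeobox gene and a marker of the dorsal lineage (ENSMUSG00000033726, chr6:85187438-85204462, plus strand), fell mainly after E14.5. It stood at 210, 202, 216 and 208 CPM at E12.5 and at 237, 217, 135 and 208 at E14.5, a step of -0.20 (SE 0.14) that did not pass (adjusted p = 0.27). Without double-positive cells the first step was -0.62 and passed (adjusted p = 0.00029), with 193 to 203 CPM in Sox2-only cells, those with no Neurod6 UMI, at E12.5 and 112 to 155 at E14.5. It then lay at 133, 130, 119 and 115 CPM at E16.0 and at 68.1, 75.7, 86.6 and 96.7 at E17.5. The steps were -0.80 (SE 0.15, adjusted p = 0.00047) and -0.52 (SE 0.15, adjusted p = 0.013), and the E17.5 libraries lay below all others. With interneuron-marker cells left out the last step was -0.37 and did not pass (adjusted p = 0.086). The low E14.5 library, F1, had a het partner that was low too, at 146 CPM against 230 to 232 in the other het libraries. That pair also had the lowest summed excitatory neuron markers of the stage in this class, 739.9 and 1010 CPM against 1353 to 2224, and whether this bears on Emx1 was not tested.

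Sp8, a zinc-finger factor of the rostral progenitors (ENSMUSG00000048562, chr12:118846329-118852576, plus strand), dropped in the first step. Its levels were 41.2, 32.99, 46.7 and 47.5 CPM at E12.5, then 11.5, 15.3, 13.8 and 12.01 at E14.5, next 8.46, 8.44, 11.7 and 9.39 at E16.0, and last 9.12, 24.7, 8.14 and 14.1 at E17.5. E12.5 stood clear of every later library, and E17.5 spread over the levels of E14.5 and E16.0. The first step was -1.81 (SE 0.27, adjusted p = 4.8e-06) and the last, upward by 0.68 (SE 0.31), did not pass (adjusted p = 0.11). That rise did pass in edgeR's test without double-positive cells (0.97, adjusted p = 0.041) and without other-marker cells (0.87, adjusted p = 0.039). Other-marker cells had at least 2 UMIs of Cajal-Retzius, oligodendrocyte precursor, endothelial, meningeal or microglial markers, and interneuron-marker cells stayed in. The rise also passed without the 4 E17.5 libraries whose label codes begin with p alone (1.11, adjusted p = 0.0062).

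The E17.5 level of Sp8 turned on which cells were counted. Sp8 is also a gene of caudal ganglionic interneurons, and 14.4% to 34.7% of WT Sox2-detected cells at E17.5 had at least 2 UMIs over Dlx1, Dlx2, Dlx5, Dlx6os1, Gad1 and Gad2, against 0.205% to 2.13% at E12.5. The summed interneuron markers were 169.2, 662.4, 216.4 and 419.3 CPM in M1, M2, F1 and F2 at E17.5, and M2 and F2 were also the libraries with the higher Sp8. Without those cells Sp8 had 3.41 to 3.60 CPM at E17.5 (13 to 17 UMIs per library) and 7.86 to 9.09 CPM at E16.0, the middle step passed too (-0.71, adjusted p = 0.017), and the last step turned to -1.18 (edgeR's quasi-likelihood test, adjusted p = 0.0020).

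Pax6, the paired-homeobox factor of radial glia (ENSMUSG00000027168, chr2:105668900-105697364, plus strand), stayed between 267 and 501 CPM in all WT libraries of the class. It had 297, 297, 283 and 267 CPM at E12.5, then 281, 333, 348 and 333 at E14.5, next 384, 390, 378 and 501 at E16.0, and last 328, 335, 318 and 308 at E17.5. The E16.0 libraries were the highest, with F2 apart from the rest, but no step passed and E17.5 against E12.5 gave a log2 fold change of -0.00 (SE 0.12, adjusted p = 1.0). The last step, -0.28 (adjusted p = 0.10), passed without double-positive cells (-0.35, adjusted p = 0.022) and in 4 of the fits without 1 library (-0.32, adjusted p = 0.040 to 0.049).

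Nr2f1 and Nr2f2 encode the orphan nuclear receptors COUP-TF1 and COUP-TF2. Nr2f1 (ENSMUSG00000069171, chr13:78188973-78199757, minus strand) stood at 271 to 317 CPM at E12.5, then 253 to 342 at E14.5, next 270 to 330 at E16.0, and last 236 to 418 at E17.5, with overlap between all stages. E17.5 against E12.5 gave -0.11 (SE 0.13, adjusted p = 0.50). That value became -0.32 (adjusted p = 0.025) without E17.5 M1, whose 418 CPM was the highest of the class, and -0.39 (adjusted p = 0.018) without the E17.5 libraries with p codes. The antisense gene A830082K12Rik over Nr2f1 had 30.1 ± 1.31 CPM at E12.5 and 53.6 ± 4.36 at E16.0 (SD, n = 4). Nr2f2 (ENSMUSG00000030551, chr7:70351944-70366735, minus strand) was sparse and uneven, at 13.8, 20.4, 17.04 and 25.2 CPM at E12.5, against 9.31, 25.9, 17.4 and 16.6 at E17.5. Its log2 fold change between these stages was -0.30 (SE 0.42, adjusted p = 0.55). Nr2f2 is a gene of caudal ganglionic interneurons too, and without interneuron-marker cells it had 8.54 ± 3.98 CPM at E17.5 against 19.2 ± 4.77 at E12.5 (SD, n = 4), a log2 fold change of -1.35 that passed (adjusted p = 0.015). Without double-positive cells Nr2f2 rose in the last step (1.27, adjusted p = 0.047), which with them was 0.38 (adjusted p = 0.58).

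Lmo4 (ENSMUSG00000028266, chr3:144188530-144205220, minus strand), a LIM-only adaptor that binds the LDB cofactors, had 45.6 to 55.8 CPM at E12.5, then 31.9 to 71.2 at E14.5, next 55.0 to 68.5 at E16.0, and last 82.5, 120, 129 and 89.6 at E17.5. All E17.5 libraries lay above all earlier ones. The last step was 0.83 (SE 0.17, adjusted p = 0.0012) and the earlier steps did not pass. Lmo3 (ENSMUSG00000030226, chr6:138362918-138581968, minus strand), a related LIM-only gene, had 28.3 to 45.1 CPM in the 16 WT libraries, stages overlapped throughout, and its 4 log2 fold changes lay between -0.09 and 0.02.

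In Neurod6-detected cells, 8 of 9 genes differed between E12.5 and E17.5 in WT, 2 higher (32.2% of all genes) and 6 lower (28.5%), against 60.7% of the 14760 genes tested in either direction. Most of it fell in the first step, in which 6 of 9 passed against 39.0% of all genes. From E14.5 to E16.0 1 of 9 passed (11.6% of all genes), and from E16.0 to E17.5 again 1 of 9 (6.72%).

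**Figure D2:**
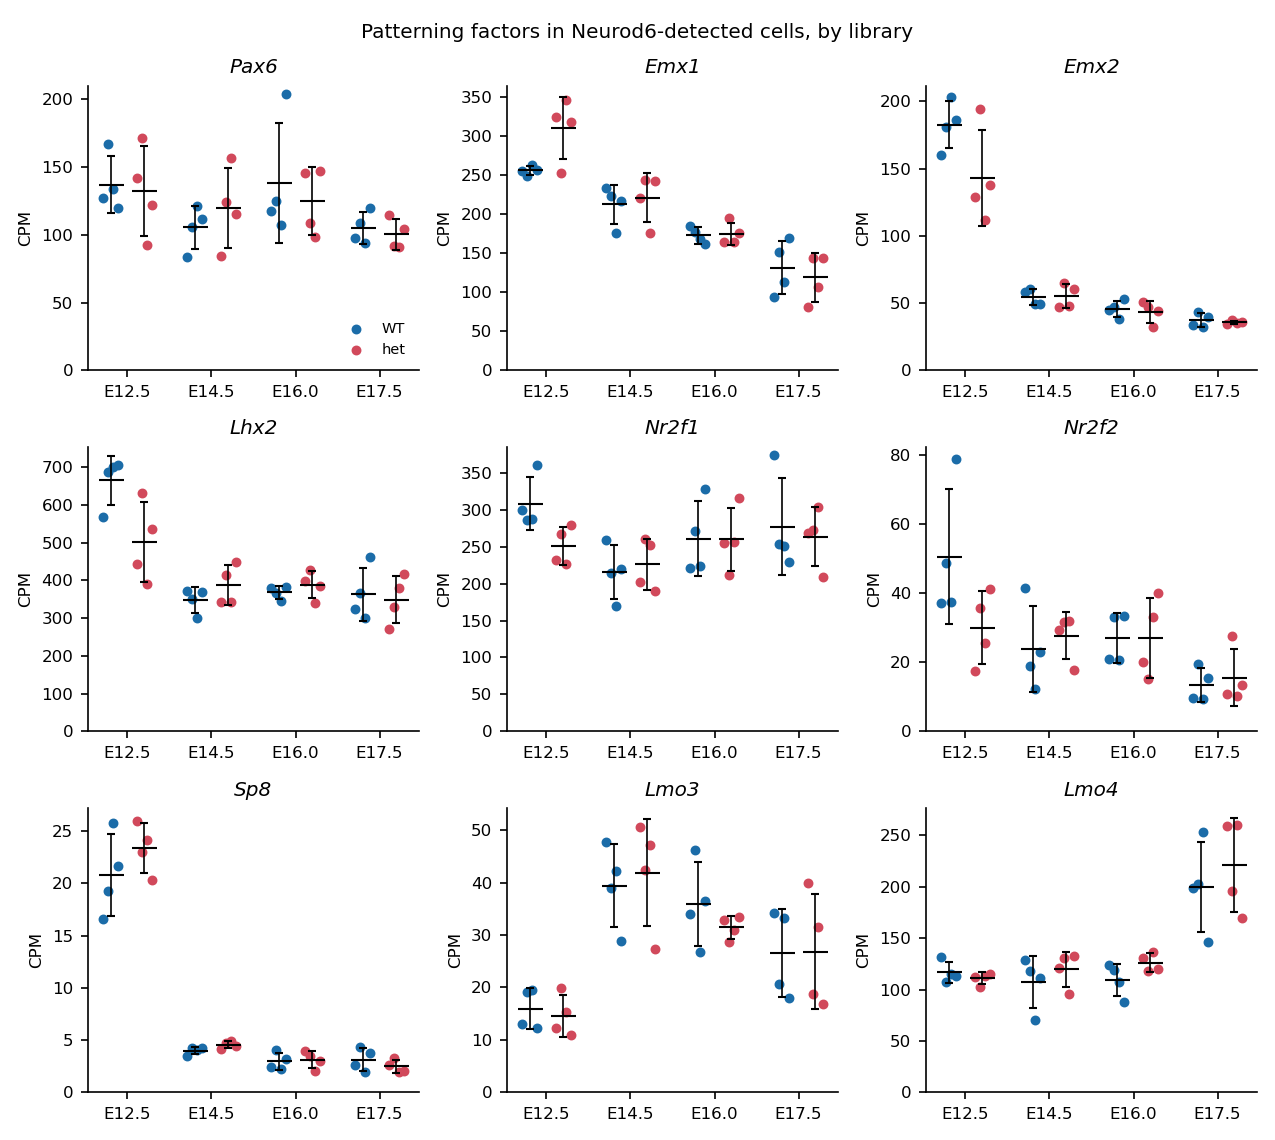
Levels of the 9 genes in Neurod6-detected cells, drawn as for Sox2-detected cells: CPM from 0 against embryonic day, 1 point per library, black marks for the group mean with SD, WT and het in separate colours. Lmo3 rises from 12.2 to 19.6 CPM in WT at E12.5 to 28.8 to 47.7 at E14.5, and Sp8, Emx2 and Nr2f2 fall.

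Emx2 fell in the neuron-rich class from 160, 181, 203 and 186 CPM at E12.5 to 58.6, 60.9, 49.5 and 49.1 at E14.5, a step of -1.76 (SE 0.14, adjusted p = 4.2e-11), and reached 33.8, 43.4, 31.98 and 39.5 at E17.5. Its next step, -0.41, was at the edge of the threshold (adjusted p = 0.048) and passed in neither the analysis without double-positive cells (adjusted p = 0.25) nor many of those without 1 library. Sp8 went from 16.6, 19.3, 25.8 and 21.6 CPM to 3.46, 4.27, 4.05 and 4.23, a step of -2.40 (SE 0.21, adjusted p = 3.7e-10), and later steps did not pass. For both genes the E12.5 libraries stood clear of all later ones. In Neurod6-only cells, those with no Sox2 UMI, mean Emx2 went from 121 CPM at E12.5 to 31.8 at E14.5. Mean Sp8 went from 8.69 to 1.98 CPM there.

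Lhx2 fell in the first step, from 568, 687, 700 and 706 CPM at E12.5 to 373, 350, 300 and 368 at E14.5 (-0.95, SE 0.14, adjusted p = 4.9e-06). Later steps did not pass, with 344 to 383 CPM at E16.0 and 302 to 461 at E17.5. Emx1 declined more slowly, from 249 to 264 CPM at E12.5 to 94.0 to 169 at E17.5, where the overall change of -1.04 (SE 0.18, adjusted p = 1.1e-05) passed and no single step did. Pax6 was 0.47 lower at E17.5 than at E12.5 on the log2 scale (adjusted p = 0.031), but with cells that also had a Sox2 UMI left out the change was 0.31 (adjusted p = 0.16), so its sign turned without the double-positive cells. Nor did it pass without E12.5 M2, E17.5 M1 or E17.5 F1 (adjusted p = 0.058 to 0.13).

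Lmo3 was the only one of the 9 that rose in the first step here, from 12.9, 19.1, 19.6 and 12.2 CPM to 47.7, 38.9, 42.1 and 28.8, a change of 1.28 (SE 0.23, adjusted p = 6.0e-05). The stages did not overlap. In Neurod6-only cells mean Lmo3 was 6.84 CPM at E12.5, 43.0 at E14.5 and 25.1 at E17.5. With all Neurod6-detected cells counted, Lmo3 at E17.5 had 34.2, 20.7, 33.2 and 18.1 CPM, 0.65 above E12.5 (adjusted p = 0.017), which did not pass without E12.5 M1 or F2 or E17.5 M1 or F1 (0.48 to 0.55, adjusted p = 0.060 to 0.097). M1 and F1, the higher libraries there, share a kind of label code. Lmo4 rose in the last step, from 124, 119, 107 and 87.8 CPM at E16.0 to 198, 202, 253 and 146 at E17.5 (0.96, SE 0.16, adjusted p = 0.00030), with all E17.5 libraries above all E16.0 ones, as in Sox2-detected cells. Its first step was -0.14 (adjusted p = 0.50), and passed as a fall without double-positive cells (-0.56, adjusted p = 0.0055), with classes by 2 UMIs (-0.39, adjusted p = 0.042) and with classes called on thinned cells (-0.40, adjusted p = 0.031). Without double-positive cells the change from E12.5 to E17.5 was 0.21 and did not pass (adjusted p = 0.25).

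Nr2f2 fell from 37.2, 48.7, 37.4 and 78.7 CPM at E12.5 to 41.4, 18.9, 12.3 and 23.0 at E14.5 (-1.10, SE 0.37, adjusted p = 0.017) and to 9.59, 19.6, 9.44 and 15.3 at E17.5 (-1.99 against E12.5, SE 0.38, adjusted p = 5.3e-05). The first step was uneven, with E14.5 M1 inside the E12.5 range, and it did not pass without E12.5 F2 (-0.80, adjusted p = 0.10), E14.5 M2 (-0.99, adjusted p = 0.058) or E14.5 F1 (-0.90, adjusted p = 0.062). Nr2f1 went from 286 to 361 CPM at E12.5 to 170 to 259 at E14.5, a step of -0.53 (SE 0.15, adjusted p = 0.0064) in which the groups did not overlap, and later steps did not pass.

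At E17.5 the libraries of replicates M1 and F1, in both genotypes, carry label codes that begin with p alone, and those of M2 and F2 carry other codes. What the code stands for is not stated, and each code set holds 2 WT and 2 het libraries. In Neurod6-detected cells the 4 libraries with p codes and the other 4 did not overlap for 29.7% of all genes tested, nor for Lmo3 (31.6 to 40.0 against 16.9 to 20.7 CPM), Emx1 (80.8 to 113 against 144 to 169), Nr2f2 (9.43 to 10.9 against 13.5 to 27.7) and Emx2 (31.98 to 34.9 against 35.8 to 43.3). In Sox2-detected cells they did not overlap for 21.0% of all genes, nor for Sp8 (6.95 to 9.12 against 12.003 to 24.7). Summed immediate early and stress genes moved with the code as well, at 595.1 to 951.8 CPM in the p libraries and 244.2 to 305.7 in the others in Neurod6-detected cells, and their part was not tested. Without the p libraries, an alternative added after seeing the data, Lmo3 at E17.5 was 0.21 above E12.5 (adjusted p = 0.46) and 0.77 below E16.0 (adjusted p = 0.047).

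To ask which genes belong to progenitors and which to neurons, cells with a Sox2 UMI and no Neurod6 UMI (Sox2-only) were set against cells with a Neurod6 UMI and no Sox2 UMI (Neurod6-only) of the same library. Averaged over the WT stages, 8 of 9 genes differed, 5 lower (42.6% of all genes) and 3 higher (42.8%) in Neurod6-only cells, a share close to the 85.4% of all 14416 genes tested. Pax6 and Emx2 were higher in Sox2-only cells at every stage, as was Sp8, although at E17.5 only with interneuron-marker cells counted. Lmo4 and Emx1 were higher in Neurod6-only cells at every stage, and for the others the difference changed with stage. By stage 8, 8, 7 and 8 of 9 passed, against 73.7%, 73.9%, 77.8% and 67.6% of all genes.

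**Figure D3:**
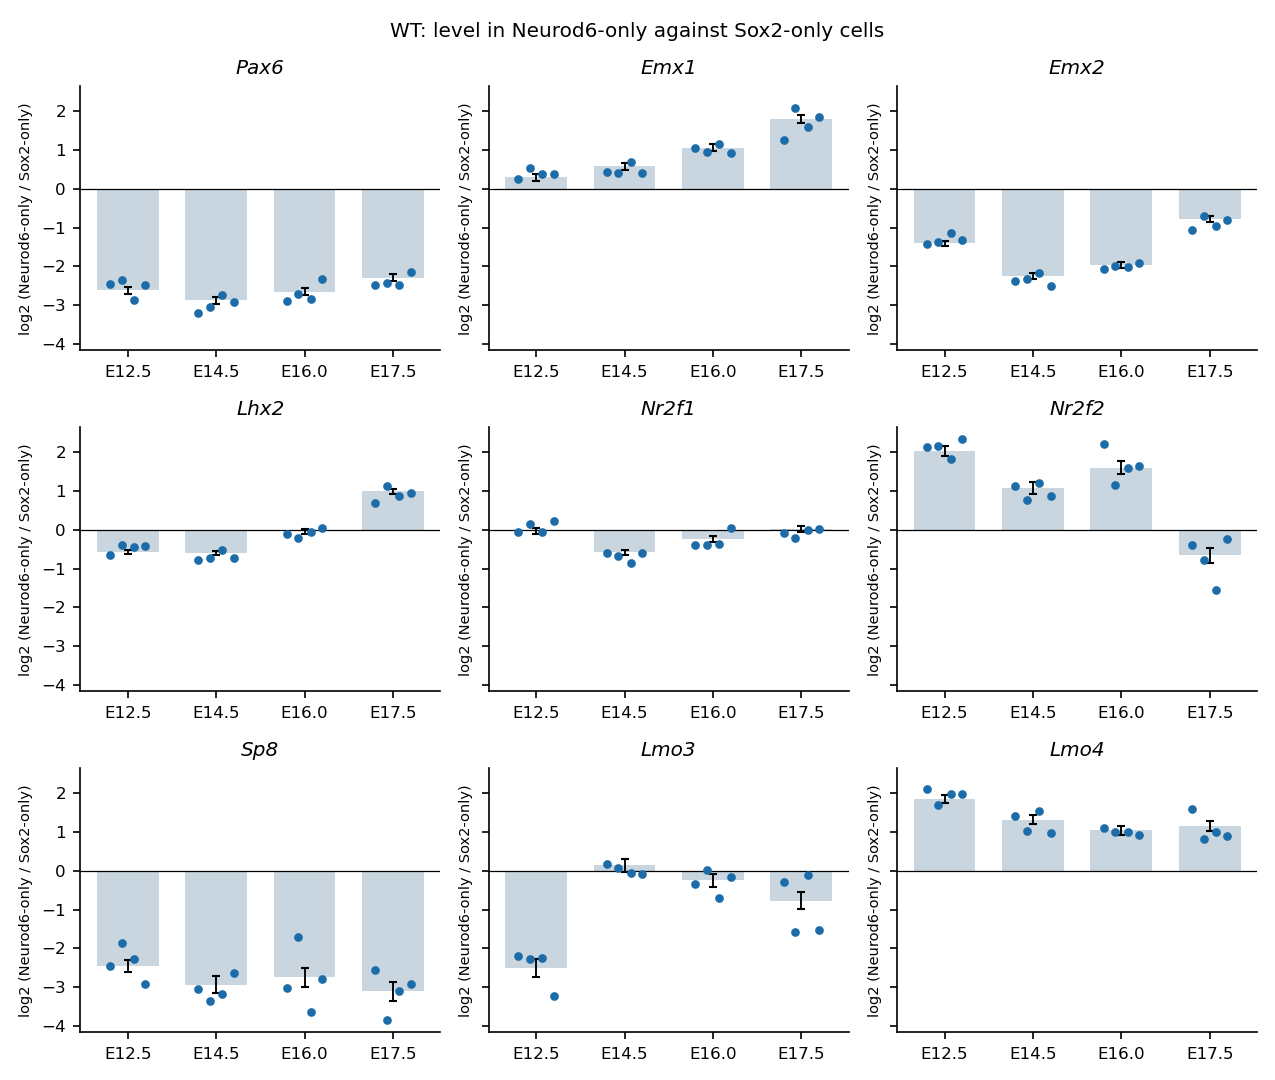
Difference between Neurod6-only and Sox2-only cells in WT, with interneuron-marker cells counted. The vertical axis is the log2 fold change (above 0, higher in Neurod6-only cells), bars are the fitted value with its SE at each stage, and points are the 4 libraries. The bars of Pax6 and Sp8 lie at -2.29 or lower at every stage, and that of Emx1 goes from 0.29 at E12.5 to 1.80 at E17.5.

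Pax6 had 280 to 320 CPM in Sox2-only and 42.1 to 62.6 CPM in Neurod6-only cells at E12.5, and 336 to 393 against 60.2 to 79.5 CPM at E17.5. It was lower in Neurod6-only cells in 4 of 4 libraries at each stage, by 2.29 to 2.88 on the log2 scale, or 6.11-fold on average (adjusted p = 3.7e-32). Sp8 had 35.4 to 49.5 against 6.50 to 10.3 CPM at E12.5 and was 7.03-fold lower on average (log2 -2.81, SE 0.11, adjusted p = 3.2e-22). At E17.5, however, the difference in Sp8 was -3.11 with interneuron-marker cells and -0.60 (adjusted p = 0.26) without them.

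Emx2 was lower in Neurod6-only cells by 1.41 at E12.5, 2.25 at E14.5, 1.97 at E16.0 and 0.78 at E17.5 on the log2 scale (SE 0.06 to 0.08, largest adjusted p = 7.6e-10). Its Sox2-only level went from 272 to 321 CPM at E12.5 to 54.9 to 62.0 at E17.5, while its Neurod6-only level was 26.9 to 35.8 CPM from E14.5 to E16.0 and 28.5 to 37.9 at E17.5. Lmo4 had 168 to 193 CPM in Neurod6-only against 42.7 to 52.4 in Sox2-only cells at E12.5, and was 2.54-fold higher in Neurod6-only cells on average (log2 1.34, SE 0.06, adjusted p = 4.1e-21).

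Emx1 was higher in Neurod6-only cells by 0.29, 0.58, 1.06 and 1.80 at the successive stages (largest adjusted p = 0.0015). At E17.5 it stood at 36.7 to 49.2 CPM in Sox2-only and 93.4 to 177 CPM in Neurod6-only cells. Lhx2 crossed over: it was lower in Neurod6-only cells by 0.57 at E12.5 and 0.60 at E14.5, did not differ past the threshold at E16.0 (-0.04, SE 0.06, adjusted p = 0.53), and was higher by 1.00 at E17.5 (SE 0.06, adjusted p = 1.3e-15). In CPM, Lhx2 went from 744 to 834 in Sox2-only against 476 to 624 in Neurod6-only cells at E12.5 to 161 to 246 against 295 to 471 at E17.5. The groups were apart at both stages, in opposite order. Of the 351, 510, 255 and 396 WT Sox2-only cells at E17.5 (M1, M2, F1, F2), 268, 282, 165 and 274 were not interneuron-marker cells. The E17.5 differences of Emx1, Lhx2 and Emx2 given here count all Sox2-only cells. Their values without interneuron-marker cells are not given here. The part of those cells in these differences, the crossing of Lhx2 included, therefore cannot be read from them. In Sox2-detected cells at E17.5, leaving out interneuron-marker cells took mean Lhx2 from 280 to 315 CPM and mean Emx1 from 81.8 to 93.4 CPM.

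Nr2f2 had 46.5, 72.2, 47.8 and 104 CPM in Neurod6-only and 10.5, 16.1, 13.4 and 20.5 in Sox2-only cells at E12.5, a log2 difference of 2.04 (SE 0.12, adjusted p = 1.6e-16). The difference stayed positive at E14.5 and E16.0 and was -0.66 at E17.5 (SE 0.19, adjusted p = 0.0025), where interneuron-marker cells again decided the sign: without them it was 0.81 (adjusted p = 0.012). Nr2f1 differed by between -0.58 at E14.5 and 0.02 at E17.5, and without cells of other marker types, an alternative added after seeing the data, it was 0.26 at E12.5 (adjusted p = 0.00072) and -0.16 at E17.5 (adjusted p = 0.045). Lmo3 was 5.73-fold lower in Neurod6-only cells at E12.5 (4.16 to 7.97 against 35.5 to 39.0 CPM, adjusted p = 1.0e-11), and passed neither at E14.5 (0.14, SE 0.17, adjusted p = 0.47) nor at E16.0 (-0.25, SE 0.18, adjusted p = 0.20). At E17.5 it was again lower in Neurod6-only cells (-0.77, SE 0.22, adjusted p = 0.0026), at 34.9, 16.4, 34.4 and 14.9 CPM against 42.7, 49.0, 37.3 and 42.9. M2 and F2 carried most of that difference, which did not pass without M2 (-0.52, adjusted p = 0.060) or without interneuron-marker cells (-0.40, adjusted p = 0.098).

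Sox2-only cells of WT embryos were next split by whether they held a UMI of a given gene, with interneuron-marker cells and cells with at least 2 UMIs of Cajal-Retzius, oligodendrocyte precursor, endothelial, meningeal or microglial markers left out, and the levels of the other genes were compared within each library. This split was chosen after seeing the data and is given as a description, with no test. At E12.5, 660 to 1231 cells per library had an Sp8 UMI and 1729 to 2513 had none. Nr2f1 had 190, 162, 176 and 157 CPM in cells with Sp8 and 353, 327, 345 and 418 CPM in cells without it. The groups did not overlap, and Nr2f1 was lower beside Sp8 in 4 of 4 libraries, by a mean of 1.07 on the log2 scale (SD 0.23). Nr2f2 was lower as well, with 4.72, 5.32, 4.87 and 4.98 CPM in cells with Sp8 and 12.2, 20.1, 18.3 and 27.2 CPM in cells without it. Markers of other cell states moved with this split. Eomes, of intermediate progenitors, was lower in cells with Sp8 in 4 of 4 libraries (mean 14.9 against 31.7 CPM) and the hem marker Rspo3 higher in 4 of 4 (18.3 against 9.52 CPM), and their part was not tested.

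**Figure D4:**
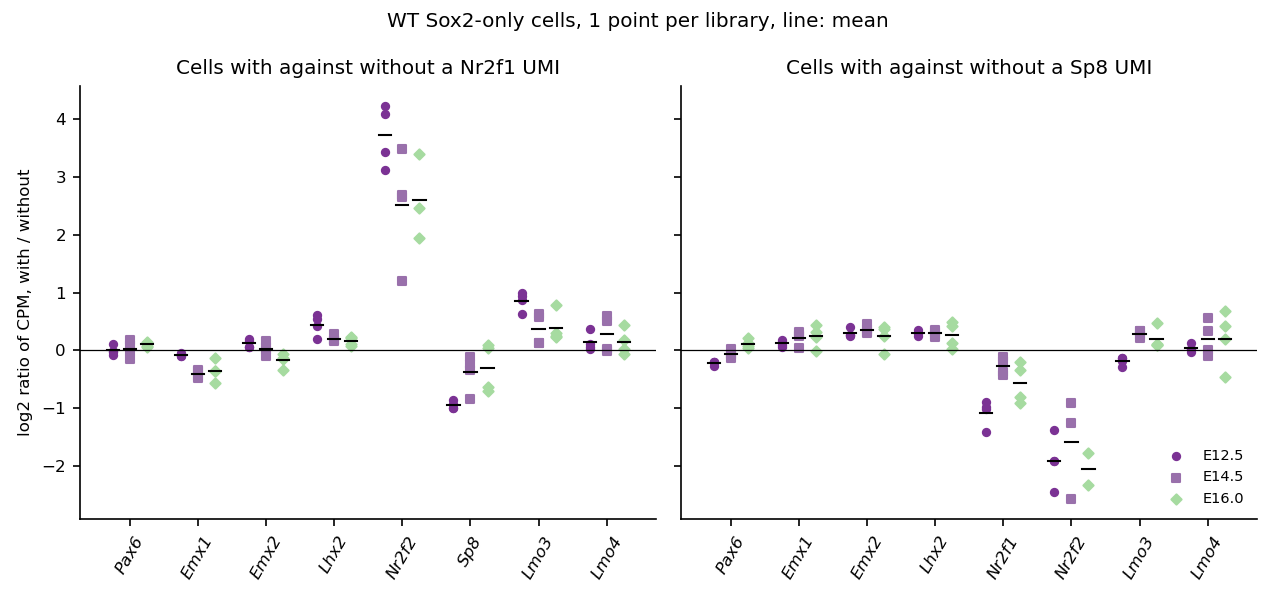
Levels in WT Sox2-only cells with a UMI of Sp8 or of Nr2f1 against cells without it, at E12.5, E14.5 and E16.0. The vertical axis is the log2 ratio of CPM, each point is a library and the line is the mean, and a library in which 1 side had no UMI has no point. At E12.5 Nr2f2 is higher and Sp8 lower beside Nr2f1 in 4 of 4 libraries, and both receptor genes are lower beside Sp8 in 4 of 4.

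Split by Nr2f1 the same cells gave the mirror image for Sp8, with 27.4 to 39.1 CPM in cells with an Nr2f1 UMI and 51.9 to 77.7 CPM in those without (mean log2 ratio -0.94, SD 0.06, lower in 4 of 4 libraries). Both splits read the same cells and the same counts of Sp8 and Nr2f1, so the reverse reading adds no separate evidence. Nr2f2 had 13.4, 20.5, 17.2 and 24.4 CPM beside Nr2f1 and 0.717, 2.36, 1.01 and 2.26 CPM away from it (7 to 26 UMIs), a mean log2 ratio of 3.72 (SD 0.53). Emx1 and Pax6 moved little in this split at E12.5, with mean log2 ratios of -0.08 (SD 0.03) and 0.00 (SD 0.08), and Lhx2 was 0.44 (SD 0.18) higher beside Nr2f1. Dlx2 was lower beside Nr2f1 in 4 of 4 libraries (1.46 against 1.85 CPM on average) and Eomes higher in 4 of 4 (mean log2 ratio 0.39, SD 0.44), Rspo3 was higher in 2 of 4, and their part was not tested. Cells with a UMI of a gene tend to be deeper: median UMIs were 11438 to 13297.5 with and 8753 to 10344 without Sp8, and 9906 to 11462 with and 8631 to 10862 without Nr2f1.

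Over all stages, Nr2f1 was lower in Sp8-detected cells in 15 of 16 WT and 15 of 16 het libraries, although only 3 to 5 WT cells per library held an Sp8 UMI at E17.5. Nr2f2 was higher beside Nr2f1 in 12 WT libraries and lower in 1, and higher in 12 het libraries and lower in 0, the other libraries having no Nr2f2 UMI on 1 side. Emx1 was lower beside Nr2f1 in 14 of 16 WT and 14 of 16 het libraries, and higher in 2 of each. Split by Lhx2 at E12.5, Emx1, Emx2 and Sp8 were higher in cells with Lhx2 in 4 of 4 libraries (mean log2 ratios 0.76, 0.78 and 1.15, SD 0.10, 0.11 and 0.30), but the cells without Lhx2 were few, 115 to 254 per library, and shallow, with medians of 6250.5 to 7485 UMIs against 9827.5 to 11457. Markers moved with this split too: over the 16 WT libraries Eomes and the Notch target Hes5 were each lower in cells with Lhx2 in 13, and the interneuron factor Dlx2 was lower in 10 and higher in 1. Their part was not tested.

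None of the 9 genes differed past the threshold between het and WT at any stage or averaged over stages in either class. With pairs in the model, assumed from sex and replicate number, 6 of them did at E12.5 in Sox2-detected cells. In Sox2-detected cells 0 of 9 passed at E12.5 (1.24% of all genes) and at the 3 later stages (0.0%, 0.0143% and 0.0%), and 0 of 9 on average (0.535%). In Neurod6-detected cells 0 of 9 passed at E12.5 (0.00678% of all genes), at the 3 later stages (0.0% each) and on average (0.257%). The averaged log2 fold changes, het minus WT, lay between -0.05 (Emx2) and 0.13 (Emx1) in Sox2-detected cells (SE 0.05 to 0.21) and between -0.11 (Emx2) and 0.11 (Lmo4) in Neurod6-detected cells (SE 0.07 to 0.19). At an unadjusted p under 0.05 there were 4 of 9 in Sox2-detected (18.1% of all genes) and 2 of 9 in Neurod6-detected cells (12.8%) at E12.5. There were 0 of 9 in the others, against 2.19%, 2.01% and 5.13% of all genes at the later stages and 8.9% on average in Sox2-detected cells, and 1.22%, 1.19%, 3.78% and 6.0% in Neurod6-detected cells. DESeq2 passed 0 of 9 in each of them. Over all genes DESeq2 passed 6.95% in Sox2-detected and 2.51% in Neurod6-detected cells at E12.5, 0.00713%, 0.0143% and 0.00713%, and 0.0136%, 0.00678% and 0.0136%, at the later stages, and 0.927% and 0.528% on average.

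**Figure D5:**
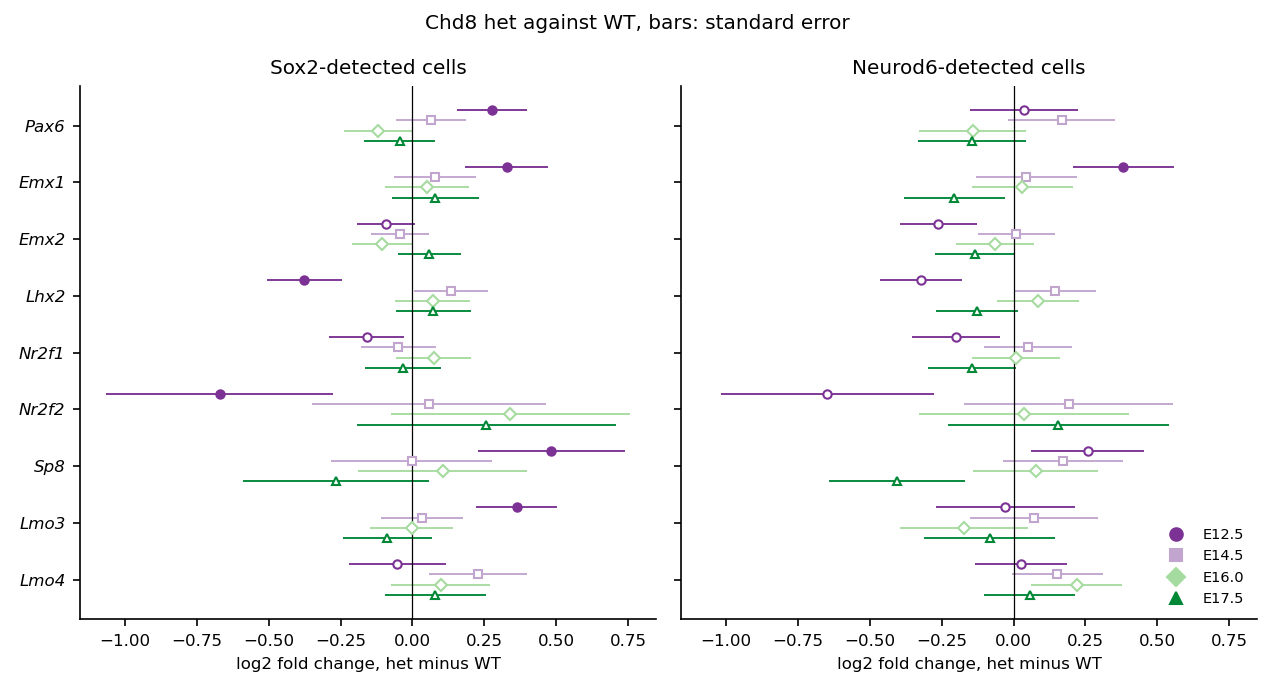
Het minus WT log2 fold changes of the 9 genes at each stage, with SE, in Sox2-detected and Neurod6-detected cells, from the fit without the pair. Filled symbols passed with the matched pair as a block and open ones did not. All 7 filled symbols are at E12.5.

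At E12.5, Lhx2 in Sox2-detected cells had 504, 672, 479 and 591 CPM in het embryos against 729, 763, 761 and 826 in WT. The groups did not overlap, which was so in 2 of the 72 comparisons of a gene, stage and class, close to the 3.56% of such comparisons over all genes tested. Lhx2 was lower in het in 4 of 4 pairs, with ratios of 0.691, 0.881, 0.630 and 0.715. The log2 fold change was -0.38 (SE 0.13, adjusted p = 0.11), and -0.38 (SE 0.08, adjusted p = 0.0096) with the pair as a block. The other comparison without overlap was Nr2f1 in Neurod6-detected cells, at 231, 267, 227 and 279 CPM in het against 299, 286, 287 and 361 in WT (log2 -0.20, SE 0.15, adjusted p = 0.63, and 0.36 with the block).

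With the pair as a block, 6 of 9 genes passed in Sox2-detected cells at E12.5, while 15.5% of all genes did. The assumed pairs correlated there at 0.316, 0.441, 0.242 and 0.378 (M1, M2, F1, F2), and neither F1 library correlated best with its partner. Besides Lhx2, Nr2f2 was lower in het (-0.78, SE 0.25, adjusted p = 0.045), and Sp8 (0.43, SE 0.12, adjusted p = 0.024), Emx1 (0.31, SE 0.09, adjusted p = 0.022), Lmo3 (0.33, SE 0.09, adjusted p = 0.025) and Pax6 (0.27, SE 0.08, adjusted p = 0.031) were higher. Nr2f2 was lower and Emx1 higher in 4 of 4 pairs, but Pax6, Lmo3 and Sp8 were higher in 3 of 4, with ratios of 0.970 and 0.939 in the M2 pair for Pax6 and Lmo3 and 0.979 in the F2 pair for Sp8. Nr2f2 had 4.17, 15.99, 8.35 and 16.3 CPM in het against 13.8, 20.4, 17.04 and 25.2 in WT, and Sp8 had 64.3, 36.5, 73.2 and 46.5 against 41.2, 32.99, 46.7 and 47.5. Both genes overlapped between genotypes. In Neurod6-detected cells Emx1 alone passed with the block (0.36, SE 0.09, adjusted p = 0.034), against 4.85% of all genes. The later stages passed 0 of 9 with the block in Sox2-detected cells (0.00713%, 0.0214% and 0.0143% of all genes) and in Neurod6-detected cells (0.00678%, 0.0203% and 0.00678%), as did the averages (1.8% and 0.962%).

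Depth and cell makeup moved with genotype at E12.5. The het libraries M1, F1 and F2 had medians of 6154, 4166.5 and 6136.5 UMIs per cell and het M2 had 10727, against 8763.5 to 10677 in WT, and the M2 pair, which also carries another label code than the other 3, had the ratio nearest 1 for Lhx2, Emx1, Pax6, Nr2f2 and Lmo3, with the F2 pair nearest for Sp8. Summed cortical hem markers (Wnt2b, Wnt3a, Rspo3 and Wnt8b) in Sox2-detected cells were 34.4, 23.1, 34.2 and 102 CPM in WT and 16.8, 16.4, 19.7 and 13.2 in het. The hem sum was lower in het in 4 of 4 pairs, F2 with the widest gap. The part of depth or of the hem sum in the result was not tested. Leaving out het M2 gave adjusted p-values in edgeR's test of 0.034 for Lhx2 (-0.44) and 0.011 for Lmo3 (0.50). The share of all genes that passed in that fit is not given here. The het libraries then left at E12.5 all had lower medians than every WT library, so genotype and depth cannot be told apart there.

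Whether the genotype effect differed between stages was tested directly. None of 14021 genes in Sox2-detected cells and none of 14760 in Neurod6-detected cells passed (edgeR's quasi-likelihood test, 826 and 506 at an unadjusted p under 0.05, and 2 and 0 with DESeq2), and Lhx2 in Sox2-detected cells had an adjusted p of 0.83 (0.17 with the block). The difference of the genotype effect between Neurod6-only and Sox2-only cells passed for 0 of 9 genes (0 at an unadjusted p under 0.05) and for 1 gene overall (0.00694%, and 2 with DESeq2), with log2 values for the 9 between -0.10 (Emx2) and 0.06 (Lmo4).

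Partners and targets of these genes were followed through 4 lists. Of the 12 genes of FGF signalling, which sets Sp8, Emx2 and Nr2f1 along the rostrocaudal axis, 10 were tested, and 8 of them changed in Sox2-detected WT cells from E12.5 to E17.5, 5 up and 3 down (median log2 0.24, against 0.05 for all genes). As above, 59.9% of all genes passed in this comparison, 32.2% up and 27.7% down, and the counts of the lists in Sox2-detected cells are to be read against these shares. All Sox2-detected cells were counted. Of these, 11.7% to 21.6% held a Neurod6 UMI at E12.5 and 38.6% to 53.0% at E17.5. Interneuron-marker cells were 0.205% to 2.13% and 14.4% to 34.7%. The part of this cell makeup in the list changes was not tested. Fgf15, an FGF ligand of the early ventricular zone, fell by 5.20 (SE 0.62), and Etv4, an FGF-induced ETS factor, rose by 3.14 (SE 0.28), both with an adjusted p of at most 2.8e-08. Of 16 other regional transcription factors 14 changed (59.9% of all genes), 6 up and 8 down (median -0.35). Dmrt3, a doublesex-related factor of the caudomedial progenitors, fell by 6.43 and Lhx9, a LIM-homeodomain relative of Lhx2, by 5.93. Sp9, the sister gene of Sp8 and an interneuron factor, rose by 4.38 (adjusted p = 3.2e-05).

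Of 10 genes with graded expression across areas, 8 changed in Sox2-detected cells (59.9% of all genes), 5 up and 3 down (median 0.60), among them Cdh8 (2.73) and Rorb (2.68) upward and Nr4a2 (-2.42) downward. The list of LIM-domain cofactors held Ldb, Ssbp and Lmo genes and Rlim. Of these, 3 of 8 passed in this class (59.9% of all genes), all lower (median -0.04), with Lmo2 at -3.27, Rlim at -0.71 and Ssbp2 at -0.49. In Neurod6-detected cells 7 of these 8 passed (60.7% of all genes), 5 up and 2 down (32.2% and 28.5%, median 0.61), led by Ldb2 (2.77, adjusted p = 8.8e-08). No gene of the 4 lists passed for genotype averaged over stages in either class. Of all genes, 0.535% did in Sox2-detected and 0.257% in Neurod6-detected cells in the fit without the pair. Genotype changes of the lists at single stages are not given here.

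Across the 64 sums of 32 libraries and 2 classes, the genes whose log2 CPM ran most like each of the 9 were picked by Pearson correlation, as a description, since sums share libraries and depth. Vcam1 (r = 0.99) and Pcgf5 (0.98) ran most like Pax6, Hmga2 (0.97) and Dmrta2 (0.96) like Emx2, Ranbp1 (0.95) and Tmem123 (0.94) like Sp8, and Gm26871 and Adgrl3 (both 0.93) like Lmo4. Klhl5 (0.89) and Kazn (0.82) ran most like Lmo3, Pop5 (0.89) and Ntmt1 (0.88) like Emx1, Isyna1 (0.82) and Aprt (0.80) like Lhx2, and Lbh (0.79) and Rgs16 (0.76) like Nr2f2. Nr2f1 had the least similar companions, Rrbp1 (0.68) and Nedd4 (0.65).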

How the data were processed

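The authors deposited UMI counts per gene and cell for 32 libraries, and the submitters' processing notes name STAR 2.7.9a with STARsolo, Cell Ranger and the build mm10. Other settings of the counting, such as strand, are not known from these sources. A barcode was kept when it held 1000 or more UMIs from 500 or more genes, of which no more than 10% were mitochondrial, and no doublet caller was run (an alternative left out the deepest 5% of cells of each library). Library totals were 14710694 to 66499864 UMIs. Libraries shared 7 to 66 barcodes (median 27) over 496 pairs.

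UMI counts were summed per library and class and tested with edgeR 4.0.16 (quasi-likelihood test, TMM, filterByExpr) in R 4.3.3, with p adjusted over all genes by Benjamini-Hochberg at 0.05. One model held all 32 libraries of a class, and the class comparison had the library as a block. The SE is the log2 fold change divided by the square root of F. DESeq2 1.42.0 was an alternative, beside no filter, double-positive cells left out, classes by 2 UMIs or on cells thinned to 2000 UMIs, interneuron-marker or other-marker cells left out, and each library left out. Counts are of molecules, and p-values measure the spread between embryos.

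The labels state litter- and sex-matched pairs, and libraries of the same sex and number were taken as a pair. In deviations from group means, 15 of 16 pairs correlated above 0.1 in each class (median 0.562 in Sox2-detected and 0.639 in Neurod6-detected cells), and 26 of 32 libraries correlated best with their own partner. At E12.5, where the block changed calls, the pairs correlated at 0.242 to 0.441 in Sox2-detected and 0.121 to 0.523 in Neurod6-detected cells. The F1 libraries of that stage correlated best with their partner in neither class. Results without and with the pair as a block are both given where the call differs.

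All 9 genes are named. From each list the 3 genes with the largest called change were eligible, and for each of the 9 the 2 genes most alike in log2(CPM + 1) among genes with a mean of at least 10 CPM. Genes and lists were chosen with earlier results of these data known. Gene positions are GENCODE M21, to which 32235 of 32285 identifiers matched, and promoters are RefSeq's. On simulated data, the het against WT test at E12.5 in Sox2-detected cells recovered 38% of 1.5-fold and 84% of 2-fold changes (13881 genes). In Neurod6-detected cells it recovered 24% of 1.5-fold and 75% of 2-fold changes (14590 genes).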

Additional observations from a re-analysis of the deposited data

Results flagged for a closer look

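In 7 of 144 groups of 4 libraries (9 genes, 2 classes, 8 groups), 1 library stood apart from the other 3, about what chance gives at 1 in 20. In Sox2-detected cells these were Pax6 in E16.0 WT F2 (501.4 CPM), Emx1 in E14.5 het F1 (146.2 CPM), Lmo4 in E14.5 WT F1 (31.94 CPM), Lmo4 in E16.0 het M2 (61.88 CPM), Nr2f2 in E17.5 het M2 (38.24 CPM) and Sp8 in E14.5 het M1 (16.14 CPM). In Neurod6-detected cells it was Lhx2 in E12.5 WT M1 (568.2 CPM).

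Lhx2 in Sox2-detected cells was lower in het in 4 of 4 pairs at E12.5 and higher in 4 of 4 pairs at E16.0, and these log2 fold changes differed by 0.4463. Emx1 in Neurod6-detected cells was higher in het in 4 of 4 pairs at E12.5 and lower in 4 of 4 at E17.5, a difference of 0.5877. The test of genotype by stage over all 4 stages passed neither gene (edgeR's quasi-likelihood test, adjusted p = 0.83 for Lhx2 and 1.0 for Emx1, and 0.17 and 0.26 with the pair as a block), and the difference between those 2 stages alone was not tested.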

How the results depend on the processing

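In Sox2-detected cells the calls of Emx2 at every step, of Lhx2 and Sp8 from E12.5 to E14.5, of Emx1 from E14.5 to E16.0, and of Lmo4 from E16.0 to E17.5 (there in both classes) held under every alternative run. With the pair as a replicate block, het against WT at E12.5 passed 6 genes in Sox2-detected cells (0 without) and 1 in Neurod6-detected cells (0 without), and the block changed no other call among the 9. Over all genes DESeq2 passed 974 at E12.5 in Sox2-detected cells against 174 with edgeR, and 370 against 1 in Neurod6-detected cells, and the averages were 130 against 75 and 78 against 38. With the block edgeR passed 2167, 716, 252 and 142 genes in these comparisons.

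Leaving out 1 library gave 0 to 2 genes for het against WT at E12.5 in Sox2-detected cells and 0 to 0 for every other genotype comparison. The steps gave 3 to 3, 2 to 3 and 4 to 5 genes in Sox2-detected cells (5 to 6 from E12.5 to E17.5) and 5 to 6, 0 to 2 and 1 to 1 in Neurod6-detected cells (6 to 8 overall), and the class comparison gave 7 to 8. With all libraries in, the steps passed 39.3%, 9.46% and 20.9% of all genes in Sox2-detected cells (59.9% from E12.5 to E17.5). In Neurod6-detected cells they passed 39.0%, 11.6% and 6.72% (60.7%). Het against WT at E12.5 passed 1.24% in Sox2-detected cells, and the class comparison 67.6% to 85.4%. Shares of all genes in the fits without 1 library are not given here. Without double-positive cells the last step in Sox2-detected cells passed 7 of the 9 genes (25.2% of all genes) and 4 with them (20.9%). The step from E14.5 to E16.0 in Neurod6-detected cells passed 1 gene (11.6% of all genes), but 2 with DESeq2 (15.8%), 3 without the E17.5 libraries with p codes (22.6%), and 0 (4.35% to 16.9%) with no filter, without double-positive cells, with classes by 2 UMIs or on thinned cells, or without the deepest or other-marker cells. The last step there passed 2 without the p libraries (5.5% of all genes) and 1 with them (6.72%).

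Signs turned in 6 cases. Without interneuron-marker cells Sp8 fell by 1.18 in the last step in Sox2-detected cells, and Nr2f2 was 0.81 higher in Neurod6-only cells at E17.5. Pax6 in Neurod6-detected cells at E17.5 against E12.5 was 0.31 without double-positive cells and 0.026 with classes by 2 UMIs. Nr2f1 between the classes was 0.26 at E12.5 and -0.16 at E17.5 without other-marker cells. The cause was not tested. Leaving out other-marker cells or the p libraries was chosen after seeing the data. Emx1 and Lhx2 lost their last step in Sox2-detected cells (adjusted p 0.053 to 0.086) without interneuron-marker cells, other-marker cells or the p libraries. In Sox2-only cells, with double-positive cells left out, mean Emx1 in WT went from 84.7 to 40.7 CPM in that step. Mean Lhx2 went from 365 to 194 CPM. Both of these means count interneuron-marker cells. Of the 351, 510, 255 and 396 WT Sox2-only cells at E17.5 (M1, M2, F1, F2), 268, 282, 165 and 274 were not interneuron-marker cells. Sparse genes were least precise: Nr2f2 had an SE of 0.36 to 0.44 per step.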
